A study of Rattus norvegicus with 8 samples.

Results

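Circular RNAs (circRNAs) whose intervals overlap a circRNA of the opposite strand were followed in rat cerebral cortex 24 h after moderate traumatic brain injury (mTBI). There were 4 libraries from injured and 4 from sham rats; injured cortex was cut from around the lesion on its own side, and sham cortex from the matching place. The sources used here give neither strain, sex and age nor the method of injury. Of 51995 circRNAs in the table, 20174 were listed above 0 in at least 4 of the 8 libraries and were kept. Members were the kept circRNAs whose interval, start to end on Rnor_6.0, shared 1 base or more with a kept circRNA of the other strand on the same chromosome. That rule found 44 circRNAs, 0.218% of those kept, 21 on the plus and 23 on the minus strand. They formed 46 plus-minus pairs in 9 separate groups of connected intervals, on 7 chromosomes. Members were thus chosen by detection (RPM above 0) and by position, so their number, their detection and their overlap are given as a description with no test.

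A circRNA forms when a splice donor joins an acceptor upstream of it (back-splicing), which closes the exons between into a ring, and it is recognised by reads across that junction. Many genes of the brain give rise to circRNAs, and 1 gene can give several that share a start or an end. Genes on opposite strands can overlap head to head, tail to tail or one inside the other, and transcripts of the other strand are known as natural antisense transcripts. The interval of a circRNA runs from one back-spliced end to the other and includes introns, so overlapping intervals need not share bases in the mature rings. The table names circRNAs by position and not by gene, so the labelled tissue could not be checked against marker genes.

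Values are RPM, junction reads scaled by the authors to the size of the library. Each library held 4966 to 5874 RPM over all circRNAs and listed 21508 to 23713 of them. The members made up 0.239% to 0.352% of that total, and 32 to 37 of the 44 were listed in any 1 library. If the smallest listed value, about 0.0259 RPM, is taken as 2 reads, the libraries held 384910 to 452692 junction reads. A value of 0 means only that the circRNA was listed at 0 in that library. In bulk tissue, fewer cells of a type and less RNA per cell cannot be told apart.

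Overlap across strands was rare beside overlap on the same strand. The kept circRNAs formed 44473 overlapping pairs on the same strand, so that the 46 opposite-strand pairs were 0.103% of all overlapping pairs. Members also overlapped circRNAs of their own strand (37 of 44, or 84.1%, against 81.3% of all kept circRNAs). Their spans had a median of 11385 bases, from 481 to 72138, against 12060.5 bases over all kept. Their mean level had a median of 0.0541 RPM against 0.0664 RPM over all kept, and 21 of 44 lay above that latter value. Listed in all 8 libraries were 17 of 44 members (38.6%) and 45.0% of all kept circRNAs. The span and the detection of a circRNA both bear on whether the rule can find it.

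No pair had the same start and end on both strands, and no pair shared even 1 exact end. Of the 46 pairs, 14 had the plus interval nested in the minus one, in 5 groups, and 11 had the minus interval nested in the plus one, in 3 groups. Another 15 overlapped in part and tail to tail, the overlap holding the 3′ end of both (convergent). A further 6 overlapped head to head, the overlap holding the 5′ end of both (divergent). The head-to-head overlaps covered 45.7% of the shorter interval on chr1. On chr9 and chr3 they covered 96.1% to 99.8% of it, so these intervals were nearly nested. Over all 46 pairs the shared stretch ran from 46 to 15664 bases, with a median of 2134. The ends nearest to each other across strands lay 2 bases apart, and in 5 pairs they lay within 10 bases.

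**Figure D1:**
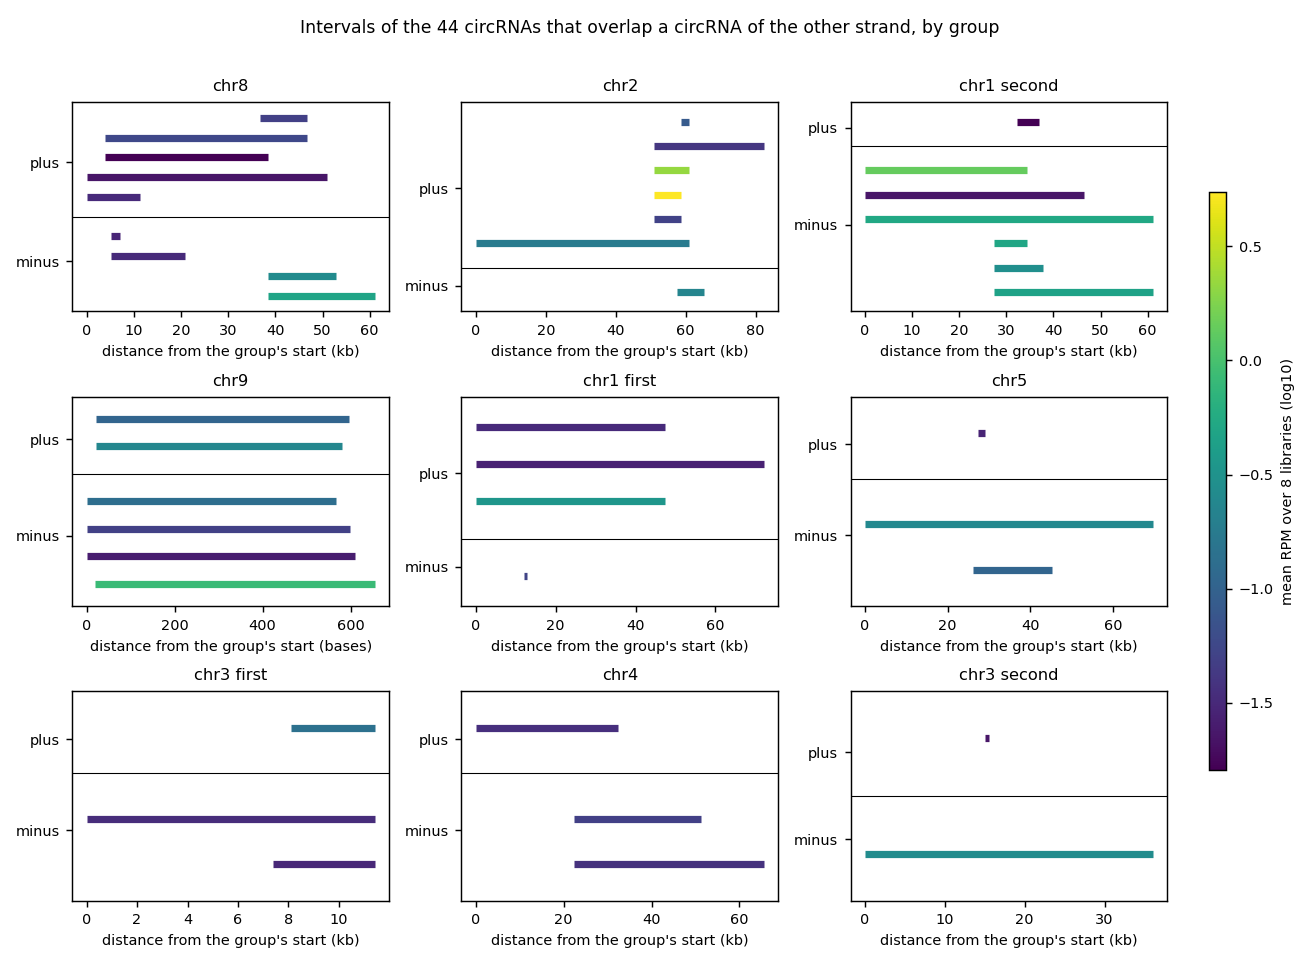
Intervals of the 44 members in their 9 groups, drawn as bars by distance from the group's start (kb, or bases for chr9), plus strand above the line and minus strand below it, coloured by mean RPM over 8 libraries on a log10 scale. In 7 of the 9 groups 1 strand holds a single circRNA, and in none of the groups do bars of opposite strands share an exact end.

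At the edge of the rule, the shortest overlap, 46 bases, lay between chr8:109499034-109533459 (plus, 0.0162 RPM) and chr8:109533414-109547936 (minus, 0.262 RPM). The next shortest in other groups were 481 bases on chr3 and 546 bases on chr9. Just outside it, the closest pair that did not overlap stood 135 bases apart in the same chr8 group, with chr8:109495060-109500002 (plus, 0.108 RPM) ending ahead of chr8:109500138-109502114 (minus, 0.0292 RPM). The more abundant plus-strand chr8:109499034-109500002, at 0.964 RPM, ended at the same base and was therefore not a member. Of the 3242 circRNAs listed in exactly 4 libraries, 9 (0.278%) were members. Of the 4224 listed in exactly 3 libraries, 9 (0.213%) overlapped a kept circRNA of the other strand, and these were left out.

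In most pairs the strands stood at unequal levels. The higher strand exceeded the lower by a median of 4.54 times, from 1.001 to 85.3 times. The ratio was 10 or more in 11 pairs and under 2 in 16 pairs. The minus strand was the higher one in 33 pairs and the plus strand in 13, and many of these pairs share a circRNA. Summed over the members of each group, the minus strand was higher in 6 groups and the plus strand in 3. In 7 groups the same strand was higher in all 8 libraries. The exceptions were the groups on chr4 and near the start of chr3, whose levels were low on both strands.

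**Figure D2:**
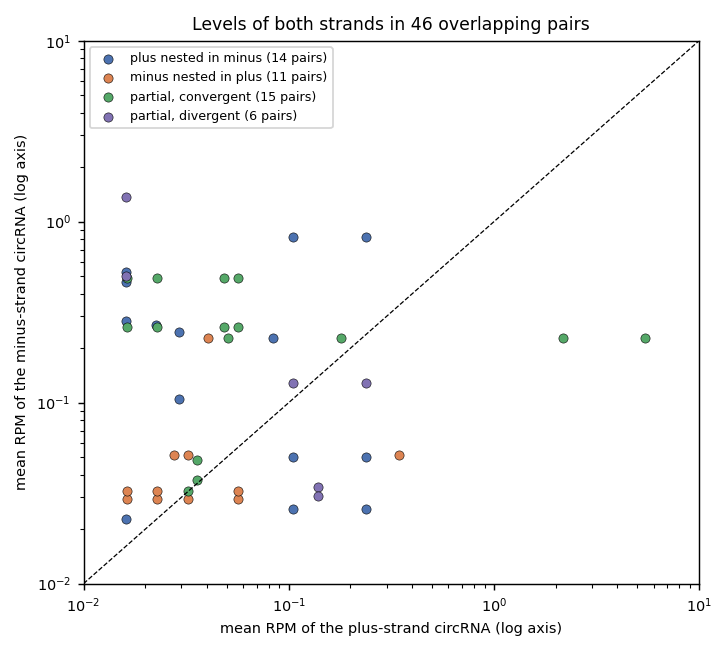
Mean RPM over 8 libraries of the plus-strand (x) and minus-strand (y) circRNA of the 46 pairs, both on log axes, coloured by kind of overlap, with the dashed line at equal levels. The 33 pairs above the line have the higher level on the minus strand, and the 2 points farthest right are the abundant chr2 plus-strand circRNAs.

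The group with the highest level lay on chr2 from 11729894 to 11812254, with 6 plus-strand circRNAs and 1 on the minus strand that overlapped all of them. The most abundant member, chr2:11780889-11788632 (plus), stood at 5.71, 4.61, 4.50 and 5.36 RPM in sham replicates 1 to 4. In mTBI replicates 1 to 4 it stood at 4.52, 5.88, 6.24 and 6.64 RPM. Its mean of 5.43 RPM was 81.9 times the median of kept circRNAs, and its groups overlapped. The sham mean was 5.05 ± 0.584 RPM and the mTBI mean 5.82 ± 0.924 RPM (SD, n = 4 each). Next in level came the plus-strand circRNA from 11780889 to 11790870, at 1.95, 2.53, 2.08 and 2.36 RPM in sham replicates 1 to 4 and, in the same order, 2.24, 1.72, 2.59 and 1.79 RPM under mTBI. The partner on the minus strand, chr2:11787460-11795180, stood at 0.284, 0.354, 0.285 and 0.193 RPM in sham replicates 1 to 4 and, in the same order, 0.206, 0.116, 0.234 and 0.156 RPM under mTBI. Its mTBI values in replicates 2 and 4 lay below its lowest sham value, and the groups overlapped.

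This minus-strand circRNA was the single minus-strand entry of the chr2 window in the whole table, against 13 on the plus strand. It met the most abundant plus-strand circRNA tail to tail over 1173 bases, at a ratio of means of 23.8 in favour of the plus strand. It met the one ending at 11790870 over 3411 bases, at a ratio of 9.45. The remaining plus-strand members averaged 0.0404 to 0.180 RPM. One of them, which ends at 11788623 and so almost matches the most abundant circRNA, averaged 0.0504 RPM. Group sums on the plus strand ran from 6.90 to 9.12 RPM, and the minus strand held 2.80% of the group's mean level. Another plus-strand circRNA in the window, chr2:11729894-11747274 at 2.64 RPM, ended before the minus interval began and was no member.

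On chr9, 6 short circRNAs lay on top of each other within 656 bases, from 100169986 to 100170641. Here the ends of the strands were closest to each other. Both plus-strand circRNAs started at 100170008, and the most abundant minus-strand circRNA started at 100170006, 2 bases away. A further 3 on the minus strand started at 100169986. Ends on the plus strand fell at 100170567 and 100170583, and those on the minus strand at 100170553, 100170585, 100170596 and 100170641. Of these, 100170583 and 100170585 again differed by 2 bases. The whole table listed 21 circRNAs in this window, 7 on the plus and 14 on the minus strand.

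Of the chr9 group, chr9:100170006-100170641 (minus) stood at 0.827, 1.07, 0.776 and 0.619 RPM in sham replicates 1 to 4 and, in the same order, 0.593, 1.08, 0.743 and 0.908 RPM under mTBI. Its plus-strand partner chr9:100170008-100170567 stood at 0.168, 0.236, 0.194 and 0.413 RPM in sham replicates 1 to 4 and, in the same order, 0.232, 0.0772, 0.156 and 0.428 RPM under mTBI. In this pair, the one with the highest level of its lower strand, the minus strand was 3.48 times higher by the means and the plus interval lay inside the minus one. The sham and mTBI ranges of the minus-strand circRNA lay nearly on top of each other. Those of the plus-strand circRNA overlapped too, with mTBI replicates 2 and 3 below its lowest sham value and replicate 4 above its highest. The minus-strand circRNA from 100169986 to 100170553, which overlapped the same plus interval head to head, averaged 0.128 RPM, and there the plus strand was 1.86 times higher. The other 3 members averaged 0.0260 to 0.105 RPM.

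The largest group, on chr8 from 109495060 to 109556128, held 5 plus-strand and 4 minus-strand circRNAs in 16 pairs. It took 2 steps along the chromosome. Near its start, the minus-strand circRNAs from 109500138 to 109502114 and to 109515801 averaged 0.0292 and 0.0323 RPM. They lay inside, or overlapped tail to tail, plus-strand circRNAs averaging 0.0162 to 0.0566 RPM. Further on, the minus-strand circRNAs starting at 109533414 were the abundant ones. The one ending at 109556128 stood at 0.439, 0.446, 0.492 and 0.722 RPM in sham replicates 1 to 4 and, in the same order, 0.439, 0.399, 0.547 and 0.402 RPM under mTBI. Its companion ending at 109547936 ranged from 0.210 to 0.387 RPM across sham and from 0.0900 to 0.350 RPM in mTBI. Both met the plus-strand circRNAs tail to tail. The minus strand was higher in all 8 libraries, with a mean sum of 0.809 RPM against 0.176 RPM for the plus strand.

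The second group on chr1, from 195805819 to 195866944, set 6 minus-strand circRNAs against 1 on the plus strand. It had the most unequal strands, with a mean sum of 3.18 RPM on the minus strand, 197 times the plus strand. The plus-strand circRNA, chr1:195838018-195842685, was listed in 4 libraries only, namely sham replicates 1, 3 and 4 (0.0388, 0.0388 and 0.0258 RPM) and mTBI replicate 1 (0.0258 RPM). These values correspond to 2 or 3 reads on the reading given above.

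Among the minus-strand circRNAs of this group, listing above 0 varied between libraries. The most abundant, chr1:195805819-195840151, reached 3.57, 2.37 and 1.80 RPM in sham replicates 2, 3 and 4, and 3.28 RPM in mTBI replicate 4. In sham replicate 1 and mTBI replicates 1, 2 and 3 it was listed at 0. It was thus at 1.80 RPM or more, or at 0, with no library between. Of the 1250 kept circRNAs that reached 1 RPM in some library, 19 (1.52%) were listed at 0 in another, and this was the only member among the 19. A circRNA with the same end, starting at 195833189, stood at 0.518 to 0.800 RPM in 6 libraries and was listed at 0 in sham replicate 4 and mTBI replicate 1. For the interval 195833189 to 195866944, 6 libraries held 0.498 to 0.788 RPM, sham replicate 4 held 0.0387 RPM and mTBI replicate 4 listed it at 0. By contrast, the one from 195805819 to 195866944 was listed in all 8 libraries, at 0.258 to 0.840 RPM.

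**Figure D3:**
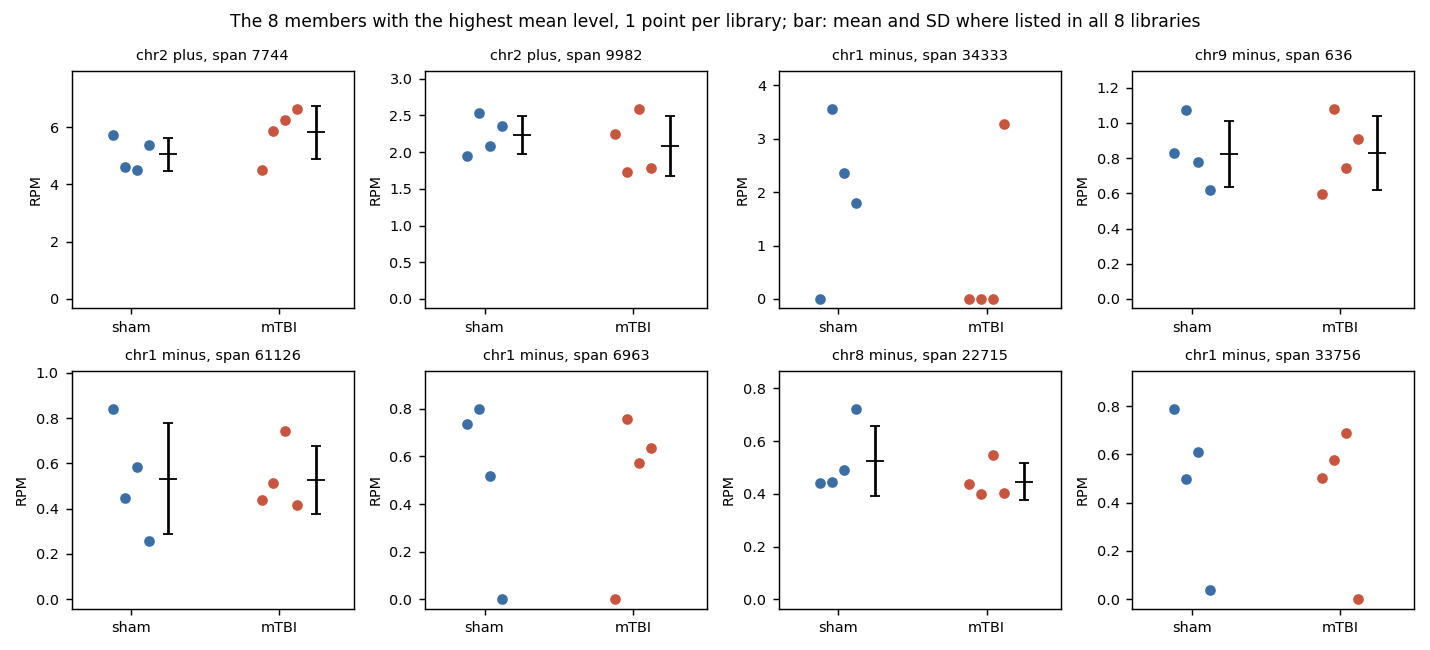
RPM per library of the 8 members with the highest mean, sham in blue and mTBI in red, with the mean and SD (n = 4) where a member was listed in all 8 libraries. Sham and mTBI values overlap in all 8 panels, and the chr1 circRNA of span 34333 is listed at 0 in 4 libraries and at 1.80 RPM or more in the other 4.

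The 5 small groups held 15 members. In the first chr1 group, the minus-strand chr1:12098614-12099341 lay inside 3 plus-strand circRNAs that spanned 47468 to 72138 bases. It was listed at 0.0647 and 0.142 RPM in sham replicates 3 and 4, at 0.103 RPM in mTBI replicates 1 and 2, and at 0 in the others. The most abundant of the plus-strand circRNAs around it, chr1:12086530-12134025, ranged from 0.219 to 0.375 RPM across sham and from 0.168 to 0.727 RPM in mTBI. A neighbouring plus-strand start lay at 12086558, and that circRNA averaged 0.0323 RPM.

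On chr5, the plus-strand chr5:77899786-77901435 averaged 0.0291 RPM and lay inside both minus-strand circRNAs. The longer of these, chr5:77872407-77942042, ranged from 0.129 to 0.328 RPM across sham and from 0.221 to 0.287 RPM in mTBI. The second group on chr3 had the same arrangement in a single pair. Its plus-strand chr3:1769790-1770270, the shortest member at 481 bases, averaged 0.0226 RPM inside chr3:1754773-1790839 (minus), which ranged from 0.142 to 0.374 RPM over the 8 libraries. In both groups the minus strand was higher in all 8 libraries.

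The first group on chr3 overlapped head to head, over 3328 of the 3335 bases of its plus-strand circRNA. Its plus-strand chr3:910287-913621 was listed in all 8 libraries, with 0.0774 to 0.155 RPM in sham libraries and 0.117 to 0.206 RPM in injured ones. Both minus-strand circRNAs ended at 913614, 7 bases before the plus-strand end, and averaged 0.0340 and 0.0307 RPM. On chr4 the overlap was tail to tail over 10021 bases. There chr4:21562012-21594401 (plus) averaged 0.0356 RPM, against 0.0485 and 0.0372 RPM for the minus-strand circRNAs that start at 21584381. Summed over the group, the minus strand was 2.40 times higher and led in 6 of 8 libraries. Each circRNA was at 0.103 RPM or below in every library.

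The comparison of injured with sham cortex asked which circRNAs differed in level. Over all 20174 kept circRNAs 5 (0.0248%) passed an adjusted p of 0.05 in limma, on the log2(RPM + 0.0259) scale, where changes of low circRNAs come out too small. None of the 44 members passed (limma, smallest adjusted p = 0.866). With limma voom on reads none did either, against 8 of all 20174 kept circRNAs. At an unadjusted p under 0.05 there were 3 members, against 4.68% of all kept circRNAs. The median log2 change was -0.14 over the members and -0.02 over all kept. Changes of under 0.5 on the log2 scale, up or down, were found for 29 of 44 members (65.9%) and for 70.1% of all kept. Levels of 24 members averaged under 0.1 RPM, so changes in them rested on low values, at most 0.181 RPM in any library.

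Sham and mTBI values stood fully apart for 1 of the 44 members, against 2.81% of all kept circRNAs. This was chr4:21584381-21627570 (minus), at 0.0646, 0.0524, 0.0518 and 0.103 RPM in sham. Among the mTBI libraries, replicate 1 held 0.0258 RPM and the others listed it at 0. Its log2 change, -1.58 with an SE of 0.55, did not pass (limma adjusted p = 0.871, and 0.295 to 0.997 over the alternatives). The circRNA sharing its start, chr4:21584381-21613151, ranged over 0.0262 to 0.0906 RPM in sham and over 0.0260 to 0.0643 RPM in mTBI.

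The intermittent chr1:195805819-195840151 had the smallest p of the members; its log2 change was -3.20 with an SE of 1.10 (limma adjusted p = 0.866). When sham replicate 1, the sham library that listed it at 0, was left out it passed (limma log2 change -4.85, adjusted p = 0.0404). With no filter on low values it passed as well (limma adjusted p = 1.60e-16, SE 0.34 in place of 1.10 at the same change). Refiltered on the other 7 libraries, it fell below the minimum without sham replicates 2, 3 or 4 or mTBI replicate 4. With the circRNAs kept on all 8 libraries, a setting chosen after seeing the data, it passed without mTBI replicate 4 (limma log2 change -4.95, adjusted p = 0.0343). In that setting, leaving out sham replicate 1 gave a limma adjusted p of 0.0914, above the threshold. Over the alternatives run, its limma adjusted p ran from 1.60e-16 to 0.996, and mTBI replicate 4 stood within the range of the sham libraries that listed it. The remaining member with an unadjusted p under 0.05, chr2:11780889-11812254 (plus), had sham values of 0, 0.0655, 0.0647 and 0.155 RPM and was seen in injured cortex only in replicate 2, with 0.0386 RPM (limma adjusted p = 0.973).

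Among members in all 8 libraries, the chr2 minus-strand circRNA had a log2 change of -0.59 (SE 0.31) and its most abundant plus-strand partner 0.20 (SE 0.14), both at a limma adjusted p of 0.973. The plus-strand circRNA of the abundant chr9 pair changed in log2 level by -0.29 (SE 0.37, limma adjusted p = 0.999), which did not pass. For its minus-strand partner the change was 0.00 (SE 0.22), below 0 when libraries were centred on their median (-0.03).

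Whether the balance of the strands changed was tested on the log2 ratio within each library, over all 44519 overlapping pairs of either kind. Of these, 23 (0.0517%) passed an adjusted p of 0.05 in limma. None of the 46 opposite-strand pairs did (limma, smallest adjusted p = 0.99998), and 1 of them had an unadjusted p under 0.05, against 4.59% of all overlapping pairs. That pair was the most abundant chr2 plus-strand circRNA over its minus-strand partner. Its plus-over-minus ratio was higher in mTBI by 0.79 on the log2 scale (SE 0.32, limma unadjusted p = 0.0187 and limma adjusted p = 0.99998). Summed over the chr2 group, the log2 ratio of plus to minus was 4.68 ± 0.39 in sham and 5.37 ± 0.39 in mTBI (SD, n = 4 each), and the ranges overlapped (4.33 to 5.22 and 4.96 to 5.81).

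**Figure D4:**
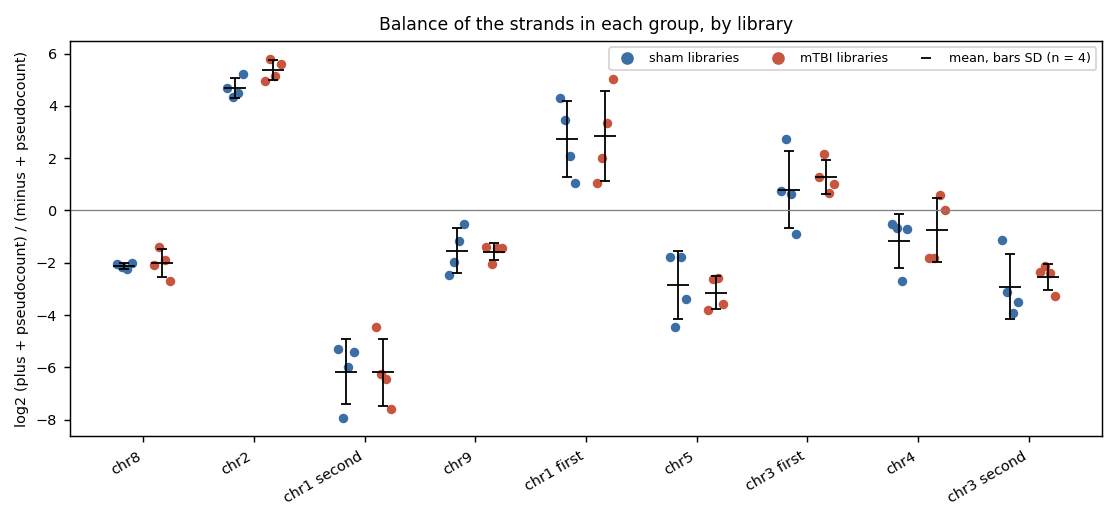
Log2 ratio of the summed plus-strand to the summed minus-strand members of each group (y, pseudocount 0.0259 RPM added to both), 1 point per library, sham in blue and mTBI in red, with mean and SD (n = 4). Sham and mTBI points overlap in all 9 groups, and only the chr4 group and the first chr3 group have points on both sides of 0.

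In the other groups the ratio moved less than the spread between libraries. The chr8 group stood at -2.12 ± 0.12 in sham and -2.01 ± 0.53 in mTBI, and the chr9 group at -1.54 ± 0.86 and -1.58 ± 0.33 (SD, n = 4 each). In the second chr1 group it was -6.16 ± 1.23 and -6.19 ± 1.29, where the plus strand is listed at 0 in 4 libraries and the ratio depends on the pseudocount. The 6 groups in which no circRNA of the lower strand was listed in more than 5 libraries had an SD of 1.23 to 1.72 in the more variable condition.

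Covariation of the strands was measured over the 8 libraries on log2(RPM + 0.0259) in the pairs with both circRNAs listed in all 8. There were 5 such pairs, in the chr2 and chr9 groups, beside 11633 same-strand pairs. Both circRNAs of a pair share a library, its depth and its total circRNA level, and the chr2 pairs share 1 minus-strand circRNA. Of all 11638 pairs, 0 (0%) passed an adjusted p of 0.05 in the exact permutation test, and 803 (6.9%) had an unadjusted p under 0.05. No opposite-strand pair was among the latter. The smallest exact permutation p that 8 libraries allow is 2.48e-05. For 1 pair alone that gives an adjusted p of 0.289 over these pairs. The adjusted test thus could not call 1 pair by itself at any r, but only several with such small p together. In 3 of the 5 pairs r was above 0, with a median of 0.07, against a median of 0.09 over same-strand pairs.

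The 3 plus-strand circRNAs of chr2 went different ways against the same minus-strand circRNA. With the one ending at 11790870 and starting at 11780889, Pearson's r was 0.63 (exact permutation p = 0.0963, adjusted p = 0.797) and Spearman's rho 0.55 (exact permutation p = 0.171, adjusted p = 0.864). Without the 2 libraries farthest from the median of the plus-strand value, mTBI replicates 2 and 4, r was -0.07 (exact permutation p = 0.874). The relation was thus not seen without both, though dropping extremes narrows the range and tends to shrink r. Leaving out any single library gave r of 0.40 to 0.76, and centring libraries on their median gave 0.69. With the most abundant circRNA r was -0.55 (exact permutation p = 0.158, adjusted p = 0.822) and rho -0.57 (exact permutation p = 0.151, adjusted p = 0.864). There r was -0.62 without sham replicate 3 and mTBI replicate 1 (exact permutation p = 0.176). With the long circRNA from 11729894 r was 0.07 and rho 0.12 (exact permutation p = 0.870 and 0.793, adjusted p = 0.995 and 0.985), and r was -0.24 without mTBI replicates 4 and 1 (exact permutation p = 0.650).

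On chr9, the plus-strand circRNA ending at 100170567 had r = -0.40 with the abundant minus-strand circRNA (exact permutation p = 0.328, adjusted p = 0.906; rho -0.19, exact permutation p = 0.665, adjusted p = 0.963). With the minus-strand circRNA ending at 100170553 it had r = 0.26 (exact permutation p = 0.547, adjusted p = 0.956; rho 0.38, exact permutation p = 0.3599, adjusted p = 0.917). Without mTBI replicates 2 and 4 these were -0.36 and -0.05 (exact permutation p = 0.463 and 0.915). The 5 values of r were thus of both signs. Over all 46 pairs, zeros included, r was above 0 in 26 (56.5%), against 53.9% of same-strand pairs.

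**Figure D5:**
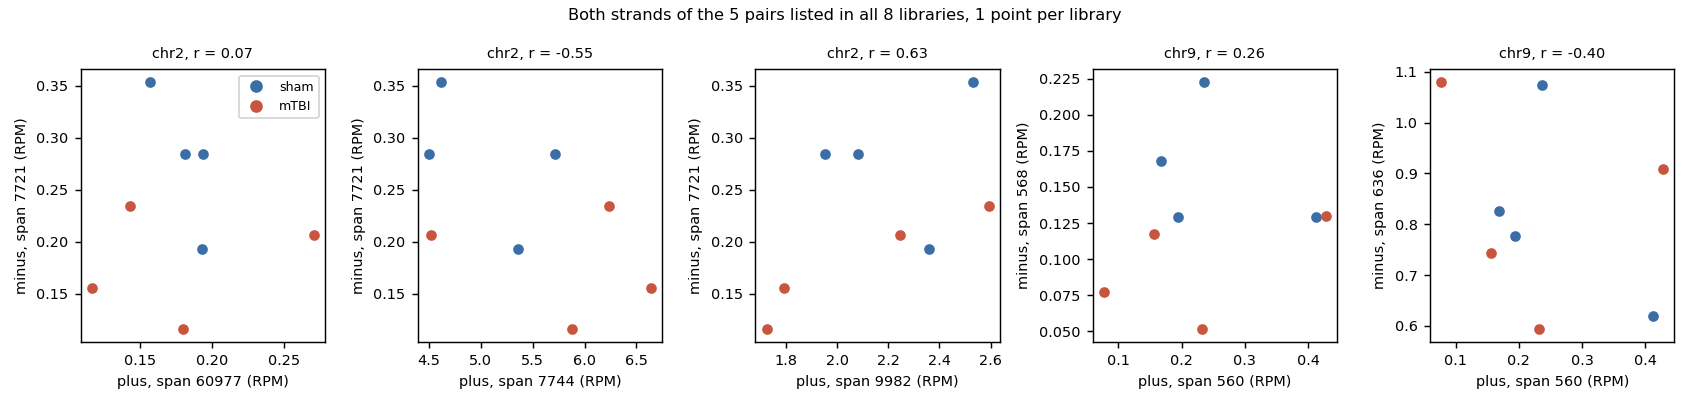
RPM of the minus-strand (y) against the plus-strand circRNA (x) in the 5 pairs listed in all 8 libraries, 1 point per library, sham in blue and mTBI in red, with the spans in bases on the axes and Pearson's r of the log2 values in the titles. The panels with r of -0.55 and 0.63 share the same minus-strand circRNA.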

How the data were processed

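One table of RPM values from the authors gives, per the file headers, the position and strand of every circRNA and a column for each of the 8 libraries. Total RNA with a RIN (RNA integrity number) of 7 or more was made into stranded, ribosomal RNA-depleted libraries, per the labels' protocols. Trimmomatic 0.36, DESeq and the build Rnor_6.0 stand in the submitters' processing notes; the circRNA caller is not given in the sources used here. Within each library all listed values were whole multiples (within 0.01) of 0.5 times the smallest one, hence the reading of that value as 2 reads. The depth per library is given in the text, and it limits the precision of low values.

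Positions were read as 1-based with both ends included. For levels, the test was limma 3.58.1 in R 4.3.3 (eBayes with an intensity trend, Benjamini-Hochberg over all kept circRNAs, two-sided), and strand ratios likewise over all overlapping pairs. Correlations used two-sided exact permutation tests over all 40320 pairings of 8 libraries. Other steps used Python 3.11.15, numpy 2.4.6, pandas 2.3.3, scipy 1.17.1 and networkx 3.6.1. The scripts were tested on simulated data. The labels do not say that same-numbered samples are paired. The limma p-values set a difference between groups against the spread between samples of a group, moderated over all circRNAs or pairs tested. The permutation p-values set r against the r of the other pairings of libraries. The members, lists and tests were chosen with earlier results of these data known. Named are the pairs highest in their lower strand, those with the closest ends, the largest groups, the most and least correlated and most unequal pairs, members with separate groups or the smallest p, the most abundant members and those at the edge of the rule. Gene names and genome sequence were not used here. The edgeR alternative was not run, since its condition was not met.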

Additional observations from a re-analysis of the deposited data

Results flagged for a closer look

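In 90 groups of 4 libraries (44 members and their share of the library, sham and mTBI), 10 had 1 library far from the other 3, where chance flags about 1 group in 20, or 4.5 of 90. Dixon's ratio, the distance of the extreme library from its neighbour divided by the spread of all 4, passed its 95% critical value in these. In 7 of the 10, the other 3 libraries were listed at 0, which always gives a ratio of 1.

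With values in more than 1 library, chr1:195833189-195843637 (minus) reached 1.02 RPM in sham replicate 2, while the other sham libraries held 0.0518 to 0.116 RPM. For chr8:109495060-109546004 (plus), mTBI replicate 4 was listed at 0 against 0.0257 to 0.0261 RPM, and chr9:100169986-100170585 (minus) fell to 0.0388 RPM in sham replicate 3, below the others at 0.0645 to 0.0655 RPM.

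Listed in 1 library of the group only were chr1:195805819-195840151 (minus) at 3.28 RPM in mTBI replicate 4, chr1:195838018-195842685 (plus) at 0.0258 RPM and chr4:21584381-21627570 (minus) at 0.0258 RPM, both in mTBI replicate 1. The same held for chr2:11780889-11812254 (plus) at 0.0386 RPM in mTBI replicate 2, chr3:1769790-1770270 (plus) at 0.0517 RPM in sham replicate 1, chr8:109499034-109533459 (plus) at 0.0261 RPM in mTBI replicate 3 and chr9:100169986-100170596 (minus) at 0.0524 RPM in sham replicate 2.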

How the results depend on the processing

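The number of members, 44, was 56 with a minimum of 3 libraries, 17 with 6 and 7 with 8, and 793 over all rows listed in at least 1 library, a setting chosen after seeing the data. Nested pairs were then 7, 1 and 536 for 6, 8 and 1 libraries, partial pairs 12, 4 and 289, and pairs with both ends within 10 bases 1 in the last. An overlap of at least 50% of the shorter interval left 10 partial pairs, and 50% of both intervals left 10 members, 6 nested and 4 partial pairs. Leaving out each library in turn, still with 4 required, gave 29 to 41 members, the fewest without sham replicate 3. The members' share of the library was 0.290% in sham and 0.274% in mTBI. For the 7 members left with a minimum of 8 libraries on both strands it was 0.166% and 0.176%. With 50% overlap of the shorter interval it was 0.102% and 0.0974%.

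Members past the threshold numbered 0, against 5 of all 20174 kept circRNAs. With no filter 1 member passed, against 55 of all 51995 circRNAs. Leaving out each library gave 0 to 1 members. The 1 came without sham replicate 1, where 6 of 18489 circRNAs passed. With the circRNAs kept on all 8 libraries, a setting chosen after seeing the data, the number was likewise 0 to 1. There the 1 came without mTBI replicate 4, where 6 of 20174 circRNAs passed. All other settings run (pseudocount, stricter filter, scaling, variance model, limma voom) gave 0 members, where 0 to 23 passed over all circRNAs tested. The stricter filter tested only 12 members and called 0 of 3435 circRNAs. For the ratio no opposite-strand pair passed under any setting run, where 0 to 47 passed over all overlapping pairs. With the replicate block, 0 members passed for level, but so did 0 of all 20174 kept circRNAs. For the ratio 0 opposite-strand pairs passed, against 47 of all 44519 overlapping pairs. With that block r was above 0 in 2 of 5 pairs. Same-numbered samples correlated at -0.01 to 0.03 after removal of group means. No shared deviation by number was seen, but this cannot tell whether the samples were paired. Over all pairs r was above 0 in 26.

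Changes that reversed were small or rested on libraries listed at 0. For chr9:100170006-100170641 the log2 change was -0.026 with libraries centred and -0.13 to 0.15 without single libraries. For chr1:195833189-195840151 it was 0.14 with limma voom and -1.22 to 1.14 without single libraries, where chr1:195805819-195866944 gave -0.22 to 0.32 and chr1:195833189-195866944 -1.22 to 0.75. Likewise chr2:11729894-11790870 gave -0.28 to 0.076 and chr9:100170008-100170567 -0.64 to 0.069. The r of chr2:11729894-11790870 with its partner was -0.0048 on the RPM scale, -0.023 with group means removed, -0.14 with the replicate block and -0.24 (without mTBI replicate 4) to 0.21 without single libraries. That of the chr9 pair with ends at 100170567 and 100170553 was -0.032 (without mTBI replicate 2) to 0.43. The cause was not tested. Depth limits the 24 members under 0.1 RPM most.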

Other observations

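Below the minimum of 4 libraries, overlap with kept circRNAs of the other strand was found mostly among circRNAs listed once. Of 20544 circRNAs listed in 1 library, 113 (0.550%) overlapped a kept circRNA of the other strand, against 13 of 7053 listed in 2 libraries (0.184%) and 9 of 4224 listed in 3 (0.213%). The median level of those 113 circRNAs was 0.00328 RPM over the 8 libraries.

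Within the windows of the 9 groups, circRNAs under the minimum were unevenly spread over strands. The chr4 window held 12 of them on the minus strand and 0 on the plus strand, the second chr1 window 15 and 3, and the chr9 window 10 and 5. In the chr8 window there were 3 on the minus and 9 on the plus strand. The abundant minus-strand circRNA of the chr5 window, chr5:77872407-77873300 at 2.18 RPM, shares its start with a member but did not reach the plus-strand interval.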
